A study of Mus musculus with 8 samples.

Results

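The genes described are 10 of the Hippo pathway and its transcriptional output, read in mouse sciatic nerve. They were chosen by symbol, with earlier results of these data known. They are the co-activators Yap1 and Wwtr1, the DNA-binding partner Tead1, the kinases Lats1 and Lats2, and the angiomotins Amot and Amotl2. The target genes are Ctgf, Cyr61 and Ankrd1. All 10 had a row among the 23356 genes of the deposited expression table, and 9 of them reached the mean of 1 FPKM (fragments per kilobase of transcript, scaled to the mapped fragments of the library, so a level corrected for gene length and library size) that was required for a test. Ankrd1 did not.

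The nerves came from 30-day-old mice of an F1 cross of C57BL/6 and FVB/N. There were 4 genotypes with 2 libraries each. Wild-type (WT) mice were compared with Q215X/+ mice, which carry 1 mutant allele and serve as a model of congenital hypomyelination neuropathy. HA-NRG1 type III/+ mice carry a transgene for a tagged axonal form of neuregulin 1, the growth factor through which axons drive Schwann cells to myelinate, and HA-NRG1 type III/+:Q215X/+ mice carry both alleles. By its title, the study concerns the severity of the neuropathy when neuregulin 1 type III is added. The promoter of the transgene, whether nerves of several animals were pooled, and whether the libraries of a genotype came from separate animals are not stated by the labels. The p-values below therefore reflect the spread between libraries, which may be technical. Whole nerve holds Schwann cells, fibroblasts, vessels, perineurium, macrophages and axons.

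The 2 libraries of each genotype carry the ending 0 or 1 in the table, and are called set 0 and set 1 below. The sets stood apart in the first principal component, which held 24.9% of the variance. Summed FPKM ran from 443733 to 530901 per library, read totals were not given, and the correlation of log2 values between the sets of a genotype ran from 0.953 to 0.968. Nrg1 read 0.184 ± 0.0285 FPKM in WT, against 0.352 ± 0.0575 with the transgene alone (SD, n = 2 each). In Q215X/+ it read 0.326 in set 0 and 0.190 in set 1, and with both alleles 0.498 and 0.358. Carriers and non-carriers thus overlapped, since set 1 of HA-NRG1 type III/+ was at 0.312. All these levels are below 1 FPKM, and whether fragments of the transgene were counted under Nrg1 is not given. Reads of Xist put 3 libraries as male, both of Q215X/+ and set 0 of HA-NRG1 type III/+, and the other 5 as female.

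In the Hippo pathway a chain of kinases ends in LATS1 and LATS2, which phosphorylate YAP and TAZ (the product of Wwtr1) and so hold them out of the nucleus. Unphosphorylated YAP and TAZ enter the nucleus, bind TEAD factors and switch on genes such as Ctgf, Cyr61 and Ankrd1. Angiomotins tie YAP and TAZ to cell junctions and the actin cytoskeleton. Schwann cells are known to need YAP and TAZ to sort axons and to turn on myelin genes. Phosphorylation and location of the proteins, by which the pathway mainly acts, are not read by RNA levels.

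All the Hippo genes other than Ankrd1 were expressed in the nerve. Over the 8 libraries Wwtr1 had a mean of 48.3 ± 2.91 FPKM, Yap1 40.1 ± 2.82, Amotl2 39.3 ± 7.60 and Tead1 27.8 ± 2.26 (SD, n = 8 throughout). Lats2 followed at 26.7 ± 4.09 FPKM, Cyr61 at 25.1 ± 3.19, Ctgf at 15.3 ± 4.78, Lats1 at 11.6 ± 1.56, Amot at 2.77 ± 0.222 and Ankrd1 at 0.0125 ± 0.0148. In that order, ranges of neighbours overlapped except between Wwtr1 and Yap1, between Lats1 and Amot, and between Amot and Ankrd1. Within each of the 8 libraries Wwtr1 was above Yap1, by a ratio of 1.06 to 1.35, and Lats2 was above Lats1, by a ratio of 2.01 to 2.80.

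**Figure D1:**
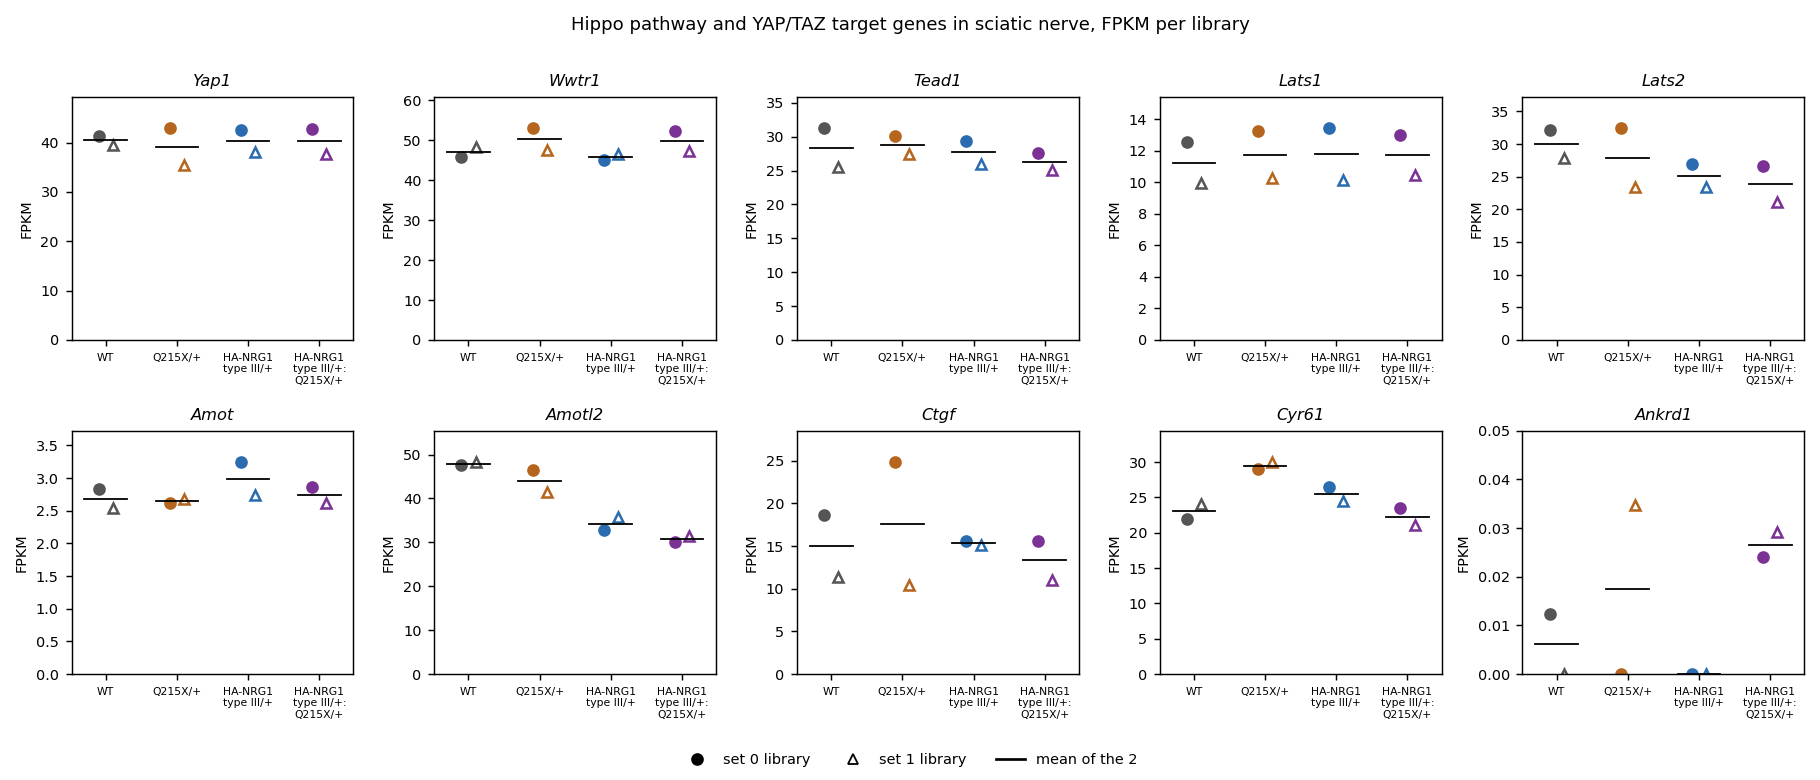
FPKM of each of the 10 genes (vertical axes, each from 0) in the 4 genotypes (horizontal axes); filled circles are set 0 libraries, open triangles set 1 libraries, and bars the mean of the 2. Amotl2 is the gene whose 4 transgene libraries, 30.2 to 35.7 FPKM, all lie below the 4 others, 41.5 to 48.2 FPKM, while Ctgf spreads from 10.4 to 24.8 FPKM with set 1 below set 0 in each genotype.

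Amotl2 was the gene of the 10 that differed between genotypes past the test. It encodes angiomotin-like 2, a junction protein that binds YAP and is itself a known YAP and TAZ target, and it lies on chromosome 9 (chr9:102716672-102733418, plus strand, GRCm38). In WT nerve it stood at 47.7 FPKM in set 0 and 48.2 in set 1, and in Q215X/+ nerve at 46.5 and 41.5. In HA-NRG1 type III/+ nerve it was at 32.9 and 35.7 FPKM, and in HA-NRG1 type III/+:Q215X/+ nerve at 30.2 and 31.5. All 4 libraries with the transgene were lower than all 4 without it, a mean of 32.6 ± 2.35 FPKM against 46.0 ± 3.07 (SD, n = 4 each), which is a difference of -29.2%. Such a gap, lower in all 4 carriers, was found for 5.2% of all tested genes.

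Tests were fitted to log2(FPKM + 1) with limma over all 12530 genes that reached the mean of 1 FPKM. Differences are on that log2 scale, p-values were adjusted over all these genes by the Benjamini-Hochberg method, and a gene was called at an adjusted p under 0.05. Averaged over both backgrounds, Amotl2 fell with the transgene by 0.49 on the log2 scale (SE 0.0642, 95% interval -0.64 to -0.33, adjusted p = 0.0358). It was 1 of 9 tested genes of the pathway called in this comparison, against 0.99% of all tested genes called in either direction and 0.455% called lower. The median difference of the 9 was -0.08, beside -0.01 for all tested genes.

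Without the block, the call of Amotl2 rested on all 8 libraries. Leaving out any 1 of them ended it, with differences of -0.53 to -0.45 and adjusted p of 0.0867 to 0.172. It was also lost with a term for the sex of the library (-0.51, adjusted p = 0.123) and with libraries rescaled to equal sums without short RNA genes (-0.45, adjusted p = 0.0704). With the set as a replicate block the adjusted p was 0.00705, where 7.1% of all tested genes were called in either direction, and the call held in 6 of 8 fits that left out a library (adjusted p of 0.00945 to 0.0617), all but those without either HA-NRG1 type III/+:Q215X/+ library.

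Amotl2 was lower with the transgene on both backgrounds and within both sets. HA-NRG1 type III/+ was below WT by -0.52 on the log2 scale in set 0 and -0.42 in set 1, and HA-NRG1 type III/+:Q215X/+ was below Q215X/+ by -0.61 and -0.39. The fitted differences were -0.47 (SE 0.0909, adjusted p = 0.222) and -0.50 (SE 0.0909, adjusted p = 0.206), neither past the test without the block. With the set as a block the adjusted p were 0.0435 and 0.0415. The difference between the 2 backgrounds was -0.02 (95% interval -0.33 to 0.29), so backgrounds that differed by less than these bounds could not be told apart here.

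Against WT, the nerves with both alleles had the lowest Amotl2. The difference was -0.62 (SE 0.0909, adjusted p = 0.101, and 0.0210 with the block), and this comparison shares its WT libraries with that of HA-NRG1 type III/+. Q215X/+ alone was below WT by -0.12 (95% interval -0.34 to 0.09), which did not pass the test.

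The other angiomotins did not move in this way. Amotl1, which was not among the 10 genes, was at 20.8 ± 0.839 FPKM in the 4 transgene libraries and 20.2 ± 0.615 in the others (SD, n = 4 each), and these ranges overlapped. Amot, on the X chromosome, was at 2.83 and 2.54 FPKM in WT, at 2.62 and 2.68 in Q215X/+, 3.24 and 2.74 in HA-NRG1 type III/+ and 2.87 and 2.61 in HA-NRG1 type III/+:Q215X/+. Its ranges overlapped between carriers and non-carriers and between male libraries (2.62 to 3.24 FPKM) and female ones (2.54 to 2.87 FPKM). Amotl2 thus made up 55.0% to 60.0% of the summed FPKM of the 3 angiomotins with the transgene and 65.1% to 68.4% without it. Per library, the ratio of Amotl2 to Amotl1 was 1.38 to 1.70 with the transgene and 2.12 to 2.44 without.

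**Figure D2:**
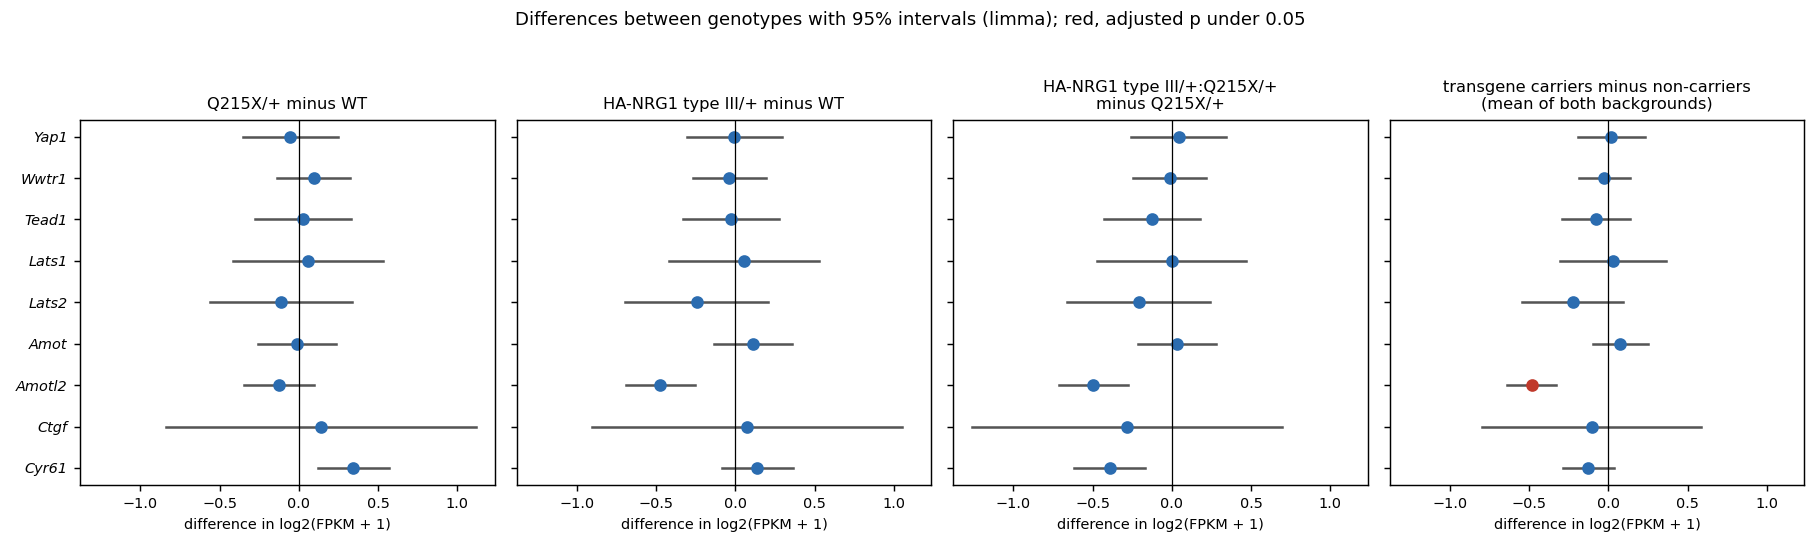
Fitted differences in log2(FPKM + 1) for the 9 tested genes (points) with 95% intervals not adjusted for the number of genes (lines), in 4 comparisons; red marks an adjusted p under 0.05. The red point is Amotl2 at -0.49 between carriers and non-carriers of the transgene, and the intervals of Ctgf are the widest, reaching from -0.84 to 1.12 between Q215X/+ and WT.

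The summed levels of 3 marker lists also lay apart between carriers and non-carriers. The summed FPKM of 8 fibroblast markers was 5600 to 5941 in carriers and 4856 to 5353 in non-carriers, while 5 of the 8 were above 0 in the transgene difference (median 0.05), and 3 of the 8 between HA-NRG1 type III/+:Q215X/+ and Q215X/+ (median -0.14). That of 5 red blood cell genes was 49.1 to 178 against 239 to 1279, and that of 6 axonal and neuronal genes 11.8 to 16.7 against 19.7 to 29.4. None of these 3 pairs of ranges overlapped, while the sums of endothelial, pericyte, perineurial, macrophage, muscle and adipocyte markers did overlap, and no listed marker in the table was at 0 in every library. Of 9 Schwann cell markers 1 was above 0 in the transgene difference (median -0.13), with 0 called without the block, and 1 called higher and 2 lower with it. In whole nerve, fewer cells of a type and less RNA per cell cannot be told apart, and the part of these cell types in the Amotl2 difference was not tested.

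The DNA-binding partners of YAP and TAZ were read through Tead1 and through a list of 7 related genes, Tead2, Tead3, Tead4 and the Vestigial-like cofactors Vgll1 to Vgll4, of which 5 were tested. Tead1 itself was at 31.2 and 25.5 FPKM in WT, at 30.1 and 27.4 in Q215X/+, 29.4 and 26.0 in HA-NRG1 type III/+ and 27.6 and 25.1 in HA-NRG1 type III/+:Q215X/+. These values overlapped in every pair of genotypes, and the transgene difference was -0.08 (95% interval -0.29 to 0.14). Tead1 made up 44.5% to 54.1% of the summed FPKM of the 4 TEAD genes.

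Vgll3 was the 1 gene of the 5 called with the transgene in the fit without the block. It encodes Vestigial-like 3, a cofactor that, like YAP and TAZ, binds TEAD factors, and lies at chr16:65815257-65866368 (plus strand, GRCm38). It was at 26.3 FPKM in both WT libraries, 24.1 and 23.7 in Q215X/+, 17.3 and 19.1 in HA-NRG1 type III/+ and 17.2 and 15.7 in HA-NRG1 type III/+:Q215X/+. Carriers were all below non-carriers, at 17.3 ± 1.38 against 25.1 ± 1.39 FPKM (SD, n = 4 each), a difference of -31.0%. On the log2 scale Vgll3 fell by 0.51 (SE 0.0594, adjusted p = 0.0283, and 0.00531 with the block). Without the block, leaving out any 1 library ended the call (adjusted p of 0.0825 to 0.137), as did a term for sex (0.0913) and equal sums without short RNA genes (0.0527). With the block it held in 8 of 8 fits that left out a library (adjusted p of 0.0211 to 0.0428).

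Tead3 and Tead4 were lower in the same libraries. Tead3 was at 12.0 ± 1.02 FPKM in carriers and 16.4 ± 1.11 in non-carriers (SD, n = 4 each), with a difference of -0.43 (adjusted p = 0.0911, and 0.0209 with the block). Tead4 was at 5.43 ± 0.593 against 7.07 ± 0.600 FPKM, with a difference of -0.33 (adjusted p = 0.169, and 0.0195 with the block). Once a term for sex joined the block, neither was called (adjusted p = 0.0895 for Tead3 and 0.0668 for Tead4). Neither gene's ranges overlapped, so 3 of the 5 tested genes lay lower in all 4 carriers, beside the 5.2% of all tested genes given above. Tead2 at 7.27 to 9.10 FPKM and Vgll4, which competes with YAP for TEAD factors, at 30.4 to 40.2 FPKM overlapped between carriers and non-carriers. Vgll1 was listed at 0 in all 8 libraries and Vgll2 in 7 of them. The median difference over the 5 tested genes was -0.33.

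**Figure D3:**
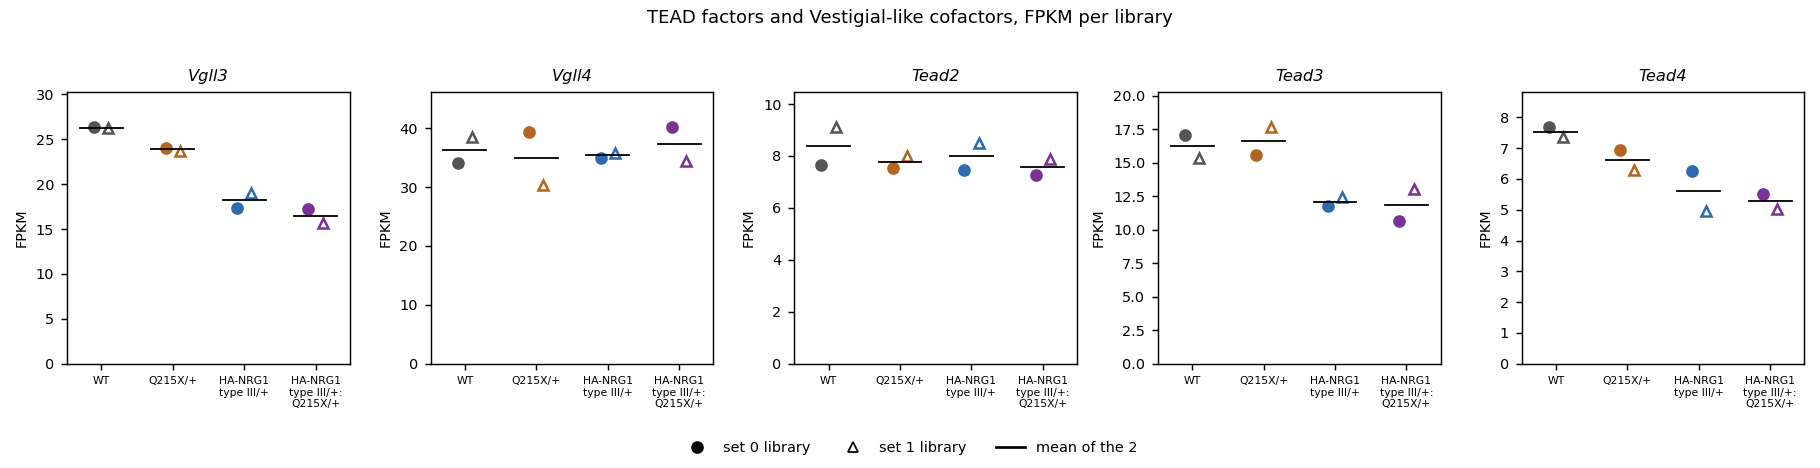
FPKM of Vgll3, Vgll4, Tead2, Tead3 and Tead4 (vertical axes, each from 0) by genotype (horizontal axes); filled circles are set 0, open triangles set 1 and bars the mean of the 2 libraries. Vgll3, Tead3 and Tead4 lie lower in all 4 transgene libraries, while Vgll4 and Tead2 overlap.

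The stretches before the transcription start of these genes were searched for the core of the TEAD motif, CATTCC, or GGAATG on the other strand. Of the 10 genes, 8 had an entry in the RefSeq promoter table of GRCm38.p6 (Tead1 and Ctgf had none). In the 250 bases before the start, 5 of the 8 held the core: Yap1, Wwtr1, Amotl2, Cyr61 and Ankrd1. The same stretch held it in 14.4% of all 27025 genes of the table. The AP-1 motif TGANTCA (7.82% of genes) and the CArG box of SRF (1.62% of genes), searched in the same way, were in none of the 8. Of the further genes searched, Vgll3, Tead3 and Vgll4 held the core, Tead2 did not, and Tead4 had no entry. Tead3 also lay lower with the transgene, while Vgll4 overlapped. The 30 bases around each core are shown for Amotl2 and Vgll3, which were both lower with the transgene, and for the target Cyr61 and the co-activator genes. They are written 5′ to 3′ on the strand of the gene, with the core in capitals.
Amotl2: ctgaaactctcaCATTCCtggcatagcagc
Vgll3: cccgcctccccaCATTCCggctaccctgcc
Cyr61: cgcgccaaccaaCATTCCtgagatgtttga
Yap1: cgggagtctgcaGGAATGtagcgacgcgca
Wwtr1: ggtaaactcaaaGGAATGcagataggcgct
The Amotl2 core began 65 bases before the RefSeq start (chr9:102717727-102717756, plus strand), inside a stretch that the GENCODE annotation gives as a 5′ untranslated exon of Amotl2. The others lay 63 bases before the start for Vgll3 (chr16:65815114-65815143, plus strand), 103 for Cyr61 (chr3:145650071-145650100, minus strand), 141 for Yap1 (chr9:8004720-8004749, minus strand) and 136 for Wwtr1 (chr3:57576029-57576058, minus strand). Wwtr1 had another RefSeq start, 170 bases after the beginning of the same core. A match is a string of letters and no measurement of binding. The core was also present in genes that were not called here, Yap1 and Wwtr1 among them. For Vgll3 and Cyr61, whose 250 bases before the start overlap no annotated exon, the whole stretch follows, from chr16:65814939-65815188 and chr3:145649986-145650235.
Vgll3: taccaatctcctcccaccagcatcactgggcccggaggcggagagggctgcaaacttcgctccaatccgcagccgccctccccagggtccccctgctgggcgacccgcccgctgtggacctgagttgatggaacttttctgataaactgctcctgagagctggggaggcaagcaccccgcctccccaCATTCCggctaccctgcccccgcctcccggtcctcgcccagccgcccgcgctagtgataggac
Cyr61: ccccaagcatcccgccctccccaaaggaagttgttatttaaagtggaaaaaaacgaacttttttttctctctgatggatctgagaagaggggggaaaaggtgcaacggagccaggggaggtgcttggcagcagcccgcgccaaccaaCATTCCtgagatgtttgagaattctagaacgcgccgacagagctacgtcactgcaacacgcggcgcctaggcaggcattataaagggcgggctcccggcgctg

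The co-activators varied little. Yap1 was at 41.4 and 39.6 FPKM in WT, at 42.9 and 35.4 in Q215X/+, 42.7 and 38.0 in HA-NRG1 type III/+ and 42.8 and 37.8 in HA-NRG1 type III/+:Q215X/+. Wwtr1 was at 45.8 and 48.4 FPKM in WT, at 53.0 and 47.7 in Q215X/+, 45.1 and 46.7 in HA-NRG1 type III/+ and 52.3 and 47.4 in HA-NRG1 type III/+:Q215X/+. Yap1 overlapped in every pair of genotypes. Wwtr1 did so too, except that both genotypes with Q215X/+ lay above HA-NRG1 type III/+. The transgene difference was 0.02 for Yap1 (95% interval -0.19 to 0.23) and -0.03 for Wwtr1 (95% interval -0.19 to 0.14). The difference between Q215X/+ and WT was -0.05 for Yap1 (95% interval -0.35 to 0.25) and 0.09 for Wwtr1 (95% interval -0.14 to 0.32).

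Of the kinases that inhibit them, Lats2 was lower with the transgene within each set, short of the test. Lats2 was at 32.1 and 27.8 FPKM in WT, at 32.4 and 23.4 in Q215X/+, 27.0 and 23.4 in HA-NRG1 type III/+ and 26.6 and 21.1 in HA-NRG1 type III/+:Q215X/+. Carriers at 24.5 ± 2.81 FPKM and non-carriers at 29.0 ± 4.23 (SD, n = 4 each) overlapped, since set 1 was lower than set 0 throughout. The difference was -0.23 (SE 0.132, adjusted p = 0.665, and 0.0600 with the block), and with the block and without set 1 of Q215X/+ the adjusted p was 0.0406. The Lats2 gene overlaps a predicted coding gene, Gm49361, on its own strand, and how shared fragments were counted is not given.

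Lats1 differed between sets and not between genotypes. It was at 12.6 and 9.95 FPKM in WT, at 13.3 and 10.2 in Q215X/+, 13.4 and 10.1 in HA-NRG1 type III/+ and 13.0 and 10.5 in HA-NRG1 type III/+:Q215X/+. Every genotype overlapped every other, and the transgene difference was 0.03 (95% interval -0.31 to 0.36). After the mean of each set was taken off, Amotl2 and Lats2 were correlated over the 8 libraries with a Pearson r of 0.956. These values share libraries and the transgene difference. This r was the highest of all pairs of the tested pathway genes, with 0.691 for Tead1 and Amotl2 next.

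Upstream of LATS, a list of 30 genes covered the MST kinases, their adaptors, NF2, the giant cadherins and the STRIPAK phosphatase complex. Of its 29 tested genes, 0 were called by limma in the transgene comparison, with or without the block, and 3 had an unadjusted p under 0.05, where 11.2% of all tested genes did. The median difference was -0.04, beside -0.01 for all tested genes. Stk4 (the kinase MST1), its adaptor Sav1, Taok2 and Map4k3 lay lower in all 4 carriers; these 4 were singled out after their values were seen. The sizes were small, with Sav1 at 23.7 ± 0.436 FPKM in carriers and 25.8 ± 0.284 in non-carriers (SD, n = 4 each), and Map4k3 at 13.1 ± 0.713 against 15.1 ± 0.818. Wtip and Limd1, LIM-domain proteins that bind LATS kinases, had the smallest p-values of the list over all comparisons. Wtip differed by -0.25 between Q215X/+ and WT (adjusted p = 1) and Limd1 by 0.22 between HA-NRG1 type III/+:Q215X/+ and WT (adjusted p = 0.540).

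Cyr61, a secreted CCN protein and one of the most used readouts of YAP activity, was highest in Q215X/+ nerve. It lies at chr3:145646976-145649981 (minus strand, GRCm38, where it is annotated as Ccn1). It was at 22.0 and 24.1 FPKM in WT, at 29.0 and 29.9 in Q215X/+, 26.4 and 24.5 in HA-NRG1 type III/+ and 23.5 and 21.0 in HA-NRG1 type III/+:Q215X/+. Q215X/+ lay above each other genotype with no overlap, and the nerves with both alleles overlapped WT. Of all tested genes, 8.78% were higher in Q215X/+ than in WT with no overlap of the libraries. Between HA-NRG1 type III/+:Q215X/+ and Q215X/+, 15.2% were lower with no overlap. The ratio of means of Q215X/+ to WT was 1.28, and within the sets it was 1.32 and 1.24.

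None of these Cyr61 differences passed the test. Between Q215X/+ and WT the difference was 0.34 (SE 0.0933, 95% interval 0.12 to 0.57, adjusted p = 1). In that comparison 0 of the 9 genes were called by limma, against 0.00798% of all tested genes, and 1 had an unadjusted p under 0.05, against 2.04%. Between HA-NRG1 type III/+:Q215X/+ and Q215X/+ it was -0.39 (SE 0.0933, adjusted p = 0.345, and 0.0815 with the block), where 0 of the 9 were called without the block, against 0.0399% of all tested genes, and 1 (Amotl2) with it, against 1.72%. There 2 of the 9 had an unadjusted p under 0.05, Amotl2 and Cyr61, against 6.58% of all tested genes. The difference of the transgene's effect between backgrounds was -0.53 (SE 0.132, adjusted p = 1.00), and 0.00798% of all tested genes were called there.

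The sex of the libraries moved with Cyr61. The 3 male libraries were at 26.4 to 29.9 FPKM and the 5 female ones at 21.0 to 24.5, with no overlap, which held for 1.06% of all tested genes in the direction of higher in males. Both Q215X/+ libraries were male, and both libraries of WT and of HA-NRG1 type III/+:Q215X/+ were female. With a term for sex the difference between Q215X/+ and WT was 0.24 (SE 0.170) and that between HA-NRG1 type III/+:Q215X/+ and Q215X/+ was -0.28 (SE 0.170). That term is estimated from HA-NRG1 type III/+ alone, where the male library is set 0 and the female one set 1, so sex and genotype cannot be told apart for Cyr61.

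**Figure D4:**
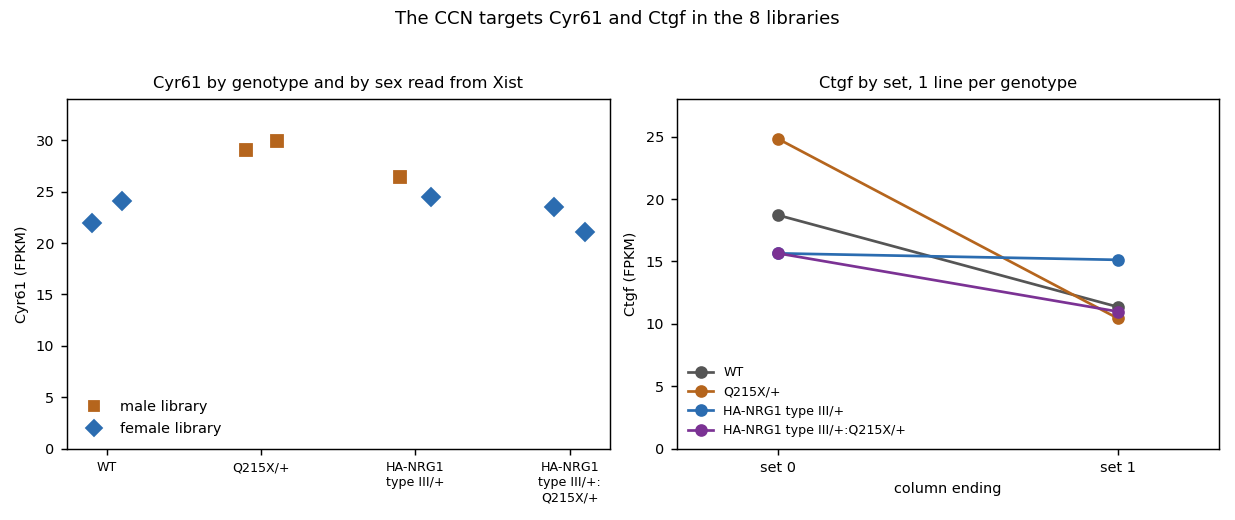
Left, Cyr61 in FPKM (vertical axis, from 0) by genotype (horizontal axis), with male libraries as squares and female ones as diamonds; right, Ctgf in FPKM (vertical axis, from 0) in set 0 and set 1 (horizontal axis), with 1 line per genotype. The 3 male libraries hold the 3 highest Cyr61 values, 26.4 to 29.9 FPKM, and every Ctgf line falls from set 0 to set 1.

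Ctgf, the connective tissue growth factor and the other CCN target, followed the set more than the genotype. It lies at chr10:24595442-24598683 (plus strand, GRCm38, annotated as Ccn2). It was at 18.7 and 11.4 FPKM in WT, at 24.8 and 10.4 in Q215X/+, 15.6 and 15.1 in HA-NRG1 type III/+ and 15.6 and 11.0 in HA-NRG1 type III/+:Q215X/+. Set 1 was below set 0 in each genotype, by a ratio of 0.421 to 0.967. The spread of Ctgf within genotypes, as moderated by limma, was above that of 97.5% of tested genes. This moderated standard deviation, which limma draws toward the trend over all genes, was 0.41 on the log2 scale, where the median gene had 0.12. The transgene difference was -0.11 (95% interval -0.80 to 0.59) and that between Q215X/+ and WT 0.14 (95% interval -0.84 to 1.12). With the set as a block the transgene interval narrowed to -0.51 to 0.30 and that between Q215X/+ and WT to -0.43 to 0.71, with neither called.

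Set 1 below set 0 in all 4 genotypes also held for Yap1, Tead1, Lats1 and Lats2, so for 5 of the 9 tested genes. Over all tested genes 21.9% were lower in set 1 in all 4 genotypes and 31.5% were higher. Cyr61 did not share this, with set 1 below set 0 in 2 of 4 genotypes. In each of the 8 libraries Cyr61 was above Ctgf, by a ratio of 1.17 to 2.87.

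Ankrd1, an ankyrin repeat protein of heart and skeletal muscle, was at or near 0. It was listed at 0.0124 and 0 FPKM in WT, at 0 and 0.0347 in Q215X/+, 0 and 0 in HA-NRG1 type III/+ and 0.0241 and 0.0291 in HA-NRG1 type III/+:Q215X/+. Its relative Ankrd2 was at 0 to 0.143 FPKM. Ankrd23 was at 2.61 to 3.86 FPKM in 7 libraries and 10.9 in set 1 of Q215X/+, the library in which the sum of skeletal muscle markers was 983 FPKM, against 5.74 to 79.0 in the others.

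Beyond the 10 genes, a list of 25 conserved YAP and TAZ targets had 24 tested genes. In the transgene comparison 0 were called by limma without the block, against 0.99% of all tested genes, and 3 had an unadjusted p under 0.05, against 11.2%. With the block 1 was called higher and 1 lower, against 7.1% of all tested genes, so these counts were near the background and are no result about the list. Nt5e, an ecto-enzyme that makes adenosine, rose with the block by 0.26 (adjusted p = 0.0141, and 0.303 without it), at 14.6 ± 1.21 FPKM in carriers against 12.0 ± 1.07 (SD, n = 4 each). Anln, the cytokinesis protein anillin, fell with the block by 0.33 (adjusted p = 0.0362, and 0.115 without it), at 3.75 ± 0.268 against 4.99 ± 0.380 FPKM. Neither gene was called once a term for sex joined the block (adjusted p = 0.0513 for Nt5e and 0.104 for Anln). The median over the 24 was 0.07, beside -0.01 for all tested genes.

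Of 9 Schwann cell genes tied to YAP and TAZ in nerve, such as those of the laminin receptors and of the myelin transcription factors, limma called 0 without the block, against 0.99% of all tested genes, and 2 reached an unadjusted p under 0.05, against 11.2%. The block gave 2 calls, both lower with the transgene, against 7.1% of all tested genes. Sox10, the factor that defines the Schwann cell lineage, was at 156 ± 5.93 FPKM in carriers and 188 ± 21.0 in non-carriers (SD, n = 4 each; -0.26, adjusted p = 0.0303 with the block and 0.303 without). Pou3f1, a factor of promyelinating Schwann cells, was at 14.3 ± 3.68 against 17.8 ± 3.80 FPKM (-0.30, adjusted p = 0.0298 with the block and 0.774 without). Both overlapped between carriers and non-carriers. Neither was called once a term for sex joined the block (adjusted p = 0.0897 for Sox10 and 0.0953 for Pou3f1).

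Other pathways that share targets with YAP and TAZ were read in the same comparison, and limma called 0 of their genes without the block. Over all tested genes 0.99% were called without the block, 7.1% with it, and 11.2% had an unadjusted p under 0.05, and the counts of these short lists are read against those shares. Of 3 tested CCN relatives 1 had an unadjusted p under 0.05, and Wisp1 was called with the block (-0.41, adjusted p = 0.0165), at 15.0 ± 2.68 FPKM against 20.1 ± 2.37. Of 13 tested genes of SRF, the MRTFs and their targets 1 had an unadjusted p under 0.05. Cnn2, a calponin, was called with the block (-0.31, adjusted p = 0.0499). Of 14 genes of TGF-beta signalling 1 had an unadjusted p under 0.05, and 3 were called higher with the block: Ltbp1, which binds latent TGF-beta in the matrix (0.41, adjusted p = 0.00934), the target Tgfbi (0.33, adjusted p = 0.0216) and the transducer Smad3 (0.31, adjusted p = 0.0439). Once a term for sex joined the block, Ltbp1 was still called (adjusted p = 0.0478). Wisp1 (0.0733), Cnn2 (0.0510), Tgfbi (0.0750) and Smad3 (0.104) were not. Of 14 tested immediate early genes 0 were called with the block either, and 1, Egr1, had an unadjusted p under 0.05 (0.46, adjusted p = 0.207 without the block).

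Counts for the remaining comparisons were low. Between HA-NRG1 type III/+ and WT, 0 of the 9 pathway genes were called by limma without the block, with 1 at an unadjusted p under 0.05 (6.9% of all tested genes). With the block 1 was called, Amotl2. Of all tested genes 0.0638% were called without the block and 2.11% with it. Between HA-NRG1 type III/+:Q215X/+ and WT the counts were 0 without the block and 1 with it, against 0.112% and 2.39% of all tested genes, and 1 gene (7.29% of all) had an unadjusted p under 0.05. Averaged over both transgene states, 0 of the 9 were called between carriers and non-carriers of Q215X/+, against 0.00798% of all tested genes, and 0 had an unadjusted p under 0.05, against 2.06%. With the block the count was also 0, against 0.016%. For none of the 9 did the 4 mutant libraries lie apart from the 4 others, which held for 1.17% of all tested genes.

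The genes most like the members in their pattern over the 8 libraries, after the mean of each set was taken off, were named by Pearson r among 11739 genes. For Ctgf they were Sos1 (0.976), Hif1an (0.975) and Plagl2 (0.973), and for Cyr61 B3gntl1 (0.981), Polr2g (0.978) and Osgepl1 (0.975). For Yap1 they were Ube2q1 (0.962), Abca8b (0.961) and Rpl36 (0.953), and for Wwtr1 Wdtc1 (0.973), Rpl7a (0.968) and Tmod3 (0.960). For Amotl2, added after its values were seen, they were Dnajc21 (0.997), Ehbp1 (0.997) and Pxdc1 (0.991). With 8 libraries and so many genes, values of this height are a description of these libraries, and none of the other 9 pathway genes was among the 3 most like any of these 5.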

How the data were processed

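RNA-seq libraries of poly(A)-selected sciatic nerve RNA were analysed from 1 deposited table of FPKM values per gene, made by the authors. The submitters' processing notes name TopHat2 2.0.9, Cufflinks 2.2.0 and the build mm10 (the same assembly as GRCm38); gene annotation and strand handling are not stated there or in the labels. Read totals are unknown: steps in the low values matched 1 common ratio in only 50 to 192 of 729 to 902 genes per library compared, so no depth was taken from them. Table columns were matched to genotypes by name, except for the stem hani. It was read as HA-NRG1 type III/+, the genotype left over once the others were matched. The transgene comparisons rest on this reading.

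Values were taken as log2(FPKM + 1). A fold on this scale understates changes of low genes. A model of 4 group means over 8 libraries was fitted with limma 3.58.1 (R 4.3.3, eBayes with trend) to the 12530 genes whose mean reached 1 FPKM, with 4 residual degrees of freedom, and p-values were adjusted by Benjamini-Hochberg over all of them. In 7 comparisons, adjusted p under 0.05 was called. The script was tested on simulated data.

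Differences between set 1 and set 0 were correlated at 0.118 to 0.304 in all pairs of genotypes, so the set was also fitted as a replicate block; the labels do not tie the endings 0 and 1 to a replicate number, so this pairing comes from the data alone. Other settings were a pseudocount of 0.25, no filter, 2 rescalings, a term for sex and each library left out. Genes named are the 10 pathway genes, and by rule from each list those called in any comparison, otherwise the 2 with the smallest p. Some list genes were named outside this rule, among them Amotl1, Stk4, Sav1, Taok2, Map4k3, Tead2 and Vgll4. Of the immediate early genes only Egr1 was named. Pathway genes, lists and tests were chosen with earlier results of these data known. Promoter sequences are from RefSeq (GRCm38.p6) and gene positions from GENCODE; no protein sequences were used. Some genes are not reported here.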

Additional observations from a re-analysis of the deposited data

How the results depend on the processing

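Of 1449 differences of single pathway genes recomputed under other settings, 1426 kept their side of the threshold, 11 passed it newly and 12 lost it, and none that passed the test changed sign. With the transgene, 1 of the 9 pathway genes was called. With equal sums without short RNA genes it was 0, with a term for sex 0, and with each library left out 0 in every case (0 to 0). With the replicate block, 1 gene was called between HA-NRG1 type III/+ and WT, 1 between HA-NRG1 type III/+:Q215X/+ and Q215X/+ and 1 between HA-NRG1 type III/+:Q215X/+ and WT, and 1 in the last also with the block and a term for sex. With the block and each library left out, chosen after seeing the data, the transgene count ran from 0 to 2, and those of HA-NRG1 type III/+ against WT and of HA-NRG1 type III/+:Q215X/+ against WT from 0 to 1. The transgene count was 0 without set 0 or without set 1 of HA-NRG1 type III/+:Q215X/+ and 2 without set 1 of Q215X/+. The block changed no other call of the 9. Amotl2 stayed below 0 with the transgene in 24 of 24 settings. Causes were not tested, beyond the fewer samples of the fits that leave out a library.

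Over all genes, the transgene comparison called 124, and 890 with the block, 304 with block and sex, 59 with no filter, 22 with a term for sex, 11 to 42 with a library left out and 113 to 669 with both block and a library left out. With 2 libraries a genotype, calls of the pathway genes depended on 1 library or on the fit, and the interval of Ctgf was -0.80 to 0.59 without the block and -0.51 to 0.30 with it.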
